A study of Mus musculus with 12 samples.

Results

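Collagens are the triple-helical proteins that give tissues most of their fibrous matrix. Each collagen type is built from chains named for the type and a chain number, and the gene symbols follow that scheme, so Col4a2 encodes chain 2 of type IV. All genes whose mouse symbol has this form were taken, which gave 44 of the 52550 genes in the count table. They were grouped by the structure their chains form: 11 fibrillar chains, 9 chains of basement membranes and their anchorage, 6 chains of type VI, 9 fibril-associated chains, 4 transmembrane chains and 5 other chains. The rule used gene symbols alone.

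In the muscle wall of the gut, fibrillar types I and III form the cables between muscle bundles, with type V inside the same fibrils. A sheet of type IV network surrounds each smooth muscle cell and each vessel. Type VI makes beaded filaments between that sheet and the fibrils, the fibril-associated types sit on the fibril surface, and the transmembrane types are held in cell membranes until they are shed.

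RNA-seq counts were available for 12 libraries from mice labelled WT (wild type), in 4 groups of 3 biologically independent replicates. The M scaffold, M plate and P plate groups were primary cells taken from intestinal muscle layers and cultured for 28 days before RNA isolation. M medium was a serum-free medium with N2, B27, N-acetylcysteine, Noggin (a BMP antagonist, 100 ng/ml), R-spondin1 (which amplifies Wnt signals, 1 µg/ml) and Y27632 (10 µM). It was used on an electrospun gelatin scaffold (M scaffold) or on a well plate (M plate). P medium was DMEM with 10% FBS on a well plate (P plate). Native intestinal muscle strips were the positive control, although their labels, too, give day 28 and a source name of primary cells. Age, sex and strain of the mice are not stated in these labels. The labels call P medium a proliferation medium and M medium a differentiation medium. The comparisons ask how medium, scaffold and culture itself relate to collagen expression.

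Counts assigned to genes ranged from 21396485 to 116643512 per library, so that a count of 0 allowed up to 0.0271 to 0.125 CPM (a gene's count as a part of its library's total on the usual CPM scale, adjusted by TMM factors of 0.893 to 1.15). All 44 collagen genes passed the low-count filter, among 17700 genes tested. A library of P plate (replicate 1) stood apart from the other 2 of its group: its 7 macrophage markers summed to 18088 CPM, against 3469 and 2114 CPM in P plate replicates 2 and 3. M scaffold replicate 3 was the deepest library, and its 8 endothelial markers summed to 197 CPM, against 1410 and 932 CPM in M scaffold replicates 1 and 2. Collagen calls that changed without either library are given with and without it.

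Collagen genes took 4.10%, 4.13% and 5.21% of the gene counts in the M scaffold libraries, 3.65%, 3.12% and 3.65% in M plate, 1.97%, 2.49% and 2.93% in P plate, and 2.37%, 2.35% and 2.57% in strips. Both M medium groups lay above P plate and strips in every library, and P plate and strips overlapped. The make-up differed between groups. On a scale of CPM per kb of summed exon length, type VI chains held 14.0 ± 1.36% of the collagen total in M scaffold, 14.9 ± 1.48% in M plate, 3.17 ± 1.27% in P plate and 18.7 ± 0.916% in strips (SD, n = 3 each). Basement membrane chains held 14.1 ± 0.986%, 15.4 ± 1.78%, 32.5 ± 3.45% and 20.4 ± 3.09% in M scaffold, M plate, P plate and strips. In P plate every library had a smaller type VI share and a larger basement membrane share than any library of the other groups. Fibrillar chains held 67.8% in M scaffold, 62.7% in M plate, 56.1% in P plate and 51.7% in strips, with the lowest share in strips replicate 2 (48.5%). Fibril-associated chains held 2.70%, 4.47%, 5.53% and 7.50% in the same groups, and transmembrane chains 0.175%, 0.594%, 0.0140% and 0.987%. With the longest protein-coding transcript as the length, the type VI share became 12.9% in M plate, 2.86% in P plate and 16.9% in strips, and the basement membrane share 11.9%, 26.4% and 16.3% in those groups.

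**Figure D1:**
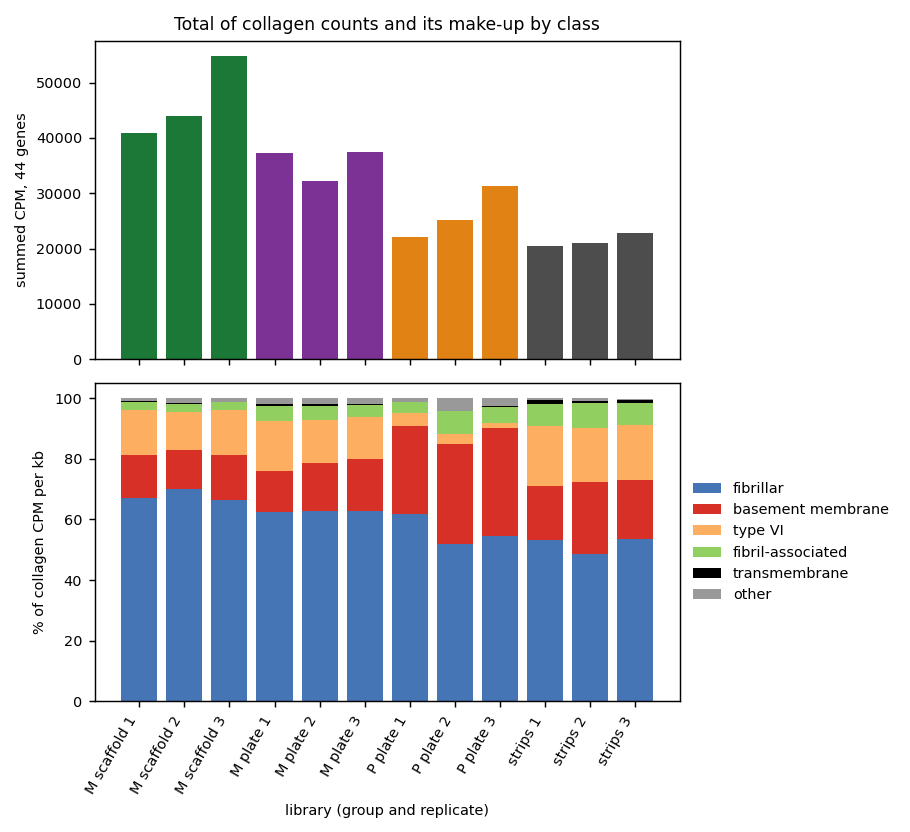
Summed CPM of the 44 collagen genes (top) and the share of each class in collagen CPM per kb of summed exon length (bottom, %), 1 bar per library. The red basement membrane band is widest (28.8% to 35.7%) and the orange type VI band narrowest (1.85% to 4.38%) in the 3 P plate libraries.

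Genes were called when the adjusted p of edgeR's quasi-likelihood test was under 0.05, and differences between groups are given as log2 fold changes ± SE. Between M plate and P plate, 15 of the 44 chains were higher in M plate, 6 lower and 23 not called, where 24.9% of all genes tested were called, 14.3% as higher and 10.6% as lower. The median log2 fold change of the 44 was 0.69, against 0 for all genes, and it was also 0.69 with Col6a5, which had no counts in P plate, at its bound. Without P plate replicate 1, 16 were higher and 10 lower, with no share of all genes given for that fit. Between M scaffold and M plate, 1 was higher and 1 lower in M scaffold, with a median of 0.29 against 0.01 for all genes and 3.18% of all genes called, 1.53% as higher and 1.64% as lower. At an unadjusted p under 0.05 there were 15 of 44, against 21.5% of all genes.

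Against strips, P plate had 11 collagen genes higher and 23 lower, with 63.1% of all genes called (30.5% higher, 32.7% lower) and a median log2 fold change of -1.47 against -0.03. M plate had 14 higher and 14 lower, with 54.9% of all genes called (26.5% higher, 28.4% lower) and a median of 0.13 against -0.01. M scaffold had 12 higher and 13 lower, with 52.1% of all genes called (24.5% higher, 27.6% lower) and a median of 0.38 against -0.02. The 3 comparisons share the strips libraries. With plain library totals in place of TMM, the median of all genes moved to -0.30, -0.23 and -0.26 in P plate, M plate and M scaffold against strips. The collagen split in M plate then became 9 higher and 15 lower, beside 3327 higher and 6492 lower of all genes. Without P plate replicate 1, the P plate comparison had 12 higher and 25 lower. Without M scaffold replicate 3, the M scaffold comparison had 10 higher and 14 lower. Shares of all genes called without these libraries are not given here.

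**Figure D2:**
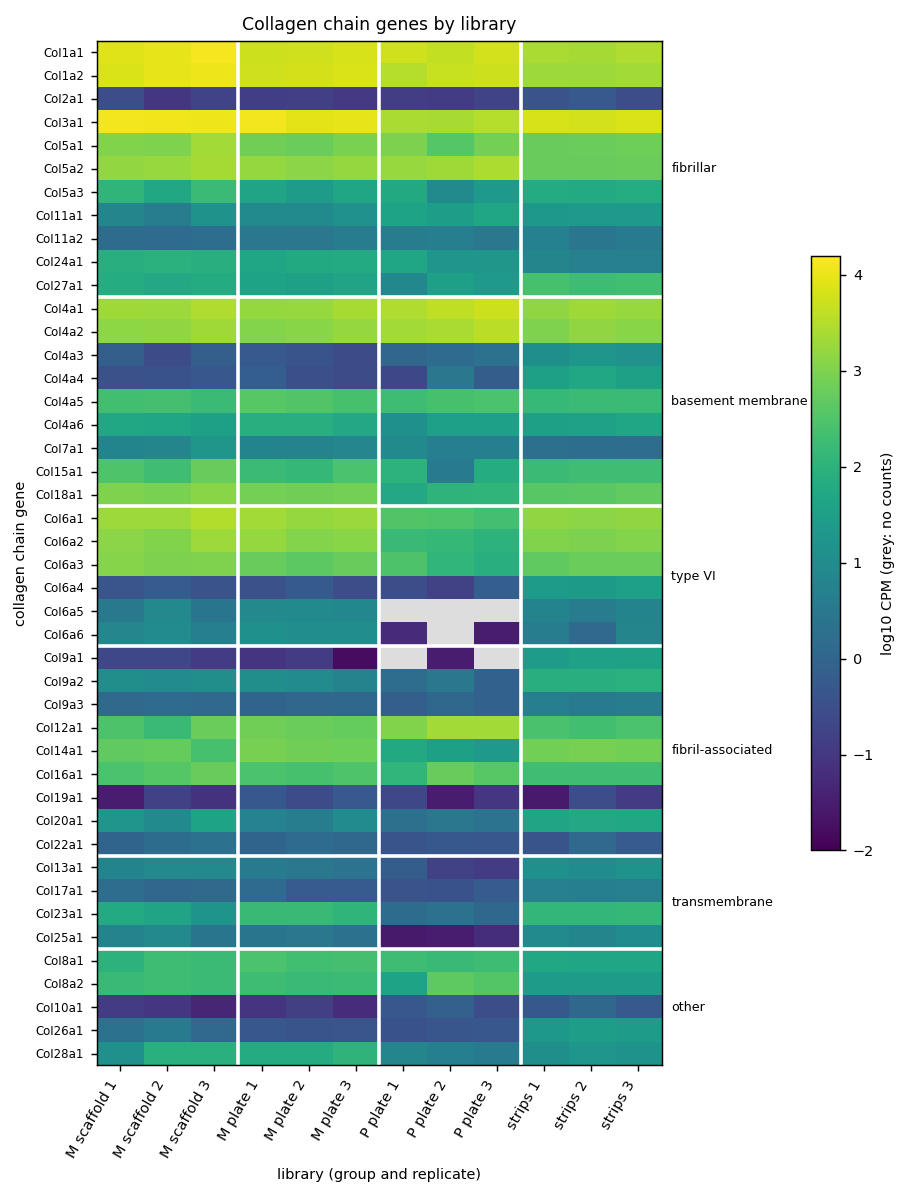
Level of every collagen gene (rows, by class) in every library (columns) as log10 CPM, with libraries at no counts in grey. P plate columns are dark or grey for Col6a5, Col6a6, Col9a1 and Col25a1, and strips columns stand alone for Col9a1, Col6a4, Col4a4 and Col26a1.

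Cell types differed between the groups, and in bulk RNA fewer cells of a type and less RNA per cell cannot be told apart. The 8 smooth muscle markers (Acta2, Myh11 and others) summed to 3476 to 10704 CPM in M scaffold, 2919 to 5233 CPM in M plate, 5265 to 10992 CPM in P plate and 34061 to 35517 CPM in strips, so the markers of the labelled tissue were present in every group and highest in strips. The 8 fibroblast markers summed to 9161 to 14958, 9103 to 10379, 3032 to 7574 and 1919 to 2409 CPM in M scaffold, M plate, P plate and strips. The 8 endothelial markers summed to 197 to 1410, 1457 to 1844, 20.5 to 28.6 and 115 to 229 CPM, and the 8 enteric glia markers to 368 to 846, 202 to 251, 26.2 to 46.4 and 172 to 214 CPM. The 8 enteric neuron markers were at 370 to 553, 122 to 233, 29.0 to 69.6 and 1125 to 1521 CPM in those groups, with Chat at 0 in all P plate libraries. P plate was lowest in these 3 cell types without overlap. Macrophage markers, 7 in all, summed to 1623 to 3717, 2901 to 3832, 2114 to 18088 and 137 to 184 CPM. The 6 mesothelial markers summed to 1035 to 1639, 1962 to 2386, 391 to 3647 and 2607 to 3059 CPM, with the low value in P plate replicate 1. The 6 pericyte markers summed to 950 to 1324, 519 to 692, 273 to 416 and 1797 to 2080 CPM, and the 5 markers of interstitial cells of Cajal to 444 to 789, 122 to 169, 65.8 to 648 and 513 to 661 CPM. By these sums, strips were lowest in fibroblast and macrophage markers and P plate in pericyte markers, without overlap. The single markers were split: of the 8 fibroblast markers, 3 were called higher and 4 lower in P plate than in strips. Of the 6 pericyte markers, 1 was called higher and 4 lower in P plate than in strips. The 7 epithelial markers summed to 25.4 to 33.3, 31.8 to 34.7, 9.09 to 95.1 and 101 to 271 CPM, with Cdx2 at 0 in every culture. The 6 adipocyte markers were at 658 to 815, 351 to 496, 269 to 951 and 29.1 to 46.6 CPM, nearly all of it Lpl and Fabp4. The 5 cartilage markers, for the cartilage collagens, stayed between 3.06 and 24.7 CPM over the 12 libraries, and Myod1 and Myog of the 6 striated muscle markers were at 0 in all 12. The part of these cell types in the collagen results was not tested.

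Type IV chains come in 3 gene pairs that lie head to head in the genome, and the pairs moved differently. Col4a1 and Col4a2 encode the chains of the classical network present in nearly all basement membranes. Col4a3 and Col4a4, with Col4a5, form the network of the kidney glomerulus and a few other sites, and Col4a5 and Col4a6 form the network found around smooth muscle. Windows of 250 bases before to 50 bases after the start site were taken from RefSeq on GRCm38.p6 for Col4a1 (chr8:11312777-11313076, minus strand) and Col4a2 (chr8:11312555-11312854, plus strand), shown because the 2 windows overlap. The start sites are 21 bases apart and the windows overlap by 78 bases, in capitals, each read 5′ to 3′ on the strand of its own gene. The windows of Col4a5 (chrX:141475169-141475468, plus strand) and Col4a6 (chrX:141474027-141474326, minus strand) lie apart, with start sites separated by 1343 bases, and there the capitals mark motif matches.
Col4a1: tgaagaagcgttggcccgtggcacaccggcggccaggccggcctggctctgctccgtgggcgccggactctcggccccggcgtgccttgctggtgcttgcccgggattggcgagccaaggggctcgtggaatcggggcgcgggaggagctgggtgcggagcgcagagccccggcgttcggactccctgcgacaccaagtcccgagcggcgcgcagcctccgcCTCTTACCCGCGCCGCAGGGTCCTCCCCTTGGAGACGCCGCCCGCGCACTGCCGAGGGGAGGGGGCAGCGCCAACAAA
Col4a2: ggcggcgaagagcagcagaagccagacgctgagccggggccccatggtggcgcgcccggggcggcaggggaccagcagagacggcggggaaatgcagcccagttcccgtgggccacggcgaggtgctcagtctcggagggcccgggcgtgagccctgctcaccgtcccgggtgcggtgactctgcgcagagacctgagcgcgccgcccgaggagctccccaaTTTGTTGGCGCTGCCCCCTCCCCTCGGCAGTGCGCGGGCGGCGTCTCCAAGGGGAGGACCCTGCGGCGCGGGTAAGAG
Col4a5: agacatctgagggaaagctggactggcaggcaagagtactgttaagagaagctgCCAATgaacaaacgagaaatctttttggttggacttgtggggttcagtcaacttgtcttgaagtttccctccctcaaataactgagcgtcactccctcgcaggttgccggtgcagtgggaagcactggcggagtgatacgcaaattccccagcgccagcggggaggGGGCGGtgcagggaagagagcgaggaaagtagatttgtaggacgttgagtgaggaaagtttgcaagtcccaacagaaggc
Col4a6: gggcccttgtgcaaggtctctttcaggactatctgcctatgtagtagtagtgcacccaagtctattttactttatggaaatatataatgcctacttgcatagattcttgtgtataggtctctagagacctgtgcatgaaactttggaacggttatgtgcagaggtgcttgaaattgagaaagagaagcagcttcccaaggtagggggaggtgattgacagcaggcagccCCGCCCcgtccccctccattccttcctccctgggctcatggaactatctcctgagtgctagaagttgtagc

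On both strands, and counting overlapping matches, the letters TATAAA were in none of these windows. CCAAT occurred 1 time each in the Col4a1, Col4a2 and Col4a5 windows and not in that of Col4a6. GGGCGG occurred 1 time in Col4a1, 3 times in Col4a2, and 1 time each in Col4a5 and Col4a6. Of 32851 promoter windows of this length, 13.6% held TATAAA, 37.4% CCAAT and 35.7% GGGCGG, and of 38 collagen windows 13.2%, 34.2% and 60.5% held them. A match is a description of the letters, not a binding site.

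The classical pair was highest in P plate. Col4a1 stood at 2045, 1993 and 2961 CPM in M scaffold, 1678, 1755 and 2380 CPM in M plate, with 2973, 4034 and 5407 CPM in P plate, and 1462, 2082 and 1745 CPM in strips. Its P plate libraries lay above every M plate and strips library, while M plate overlapped with strips and with M scaffold. The log2 fold change was -1.09 ± 0.27 (SE) in M plate against P plate (adjusted p = 0.0160) and 1.23 ± 0.28 in P plate against strips (adjusted p = 0.00274). Col4a2 stood at 1405, 1474 and 2111 CPM in M scaffold, 1144, 1257 and 1699 CPM in M plate, with 2212, 2601 and 3707 CPM in P plate, and 1018, 1523 and 1220 CPM in strips, with the same order and overlaps. It changed by -1.06 ± 0.27 in M plate against P plate (adjusted p = 0.0168) and by 1.18 ± 0.27 in P plate against strips (adjusted p = 0.00303). Both calls between M plate and P plate ended without M plate replicate 1, M plate replicate 2 or P plate replicate 3, with log2 fold changes of -1.03 to -0.82 and adjusted p values of 0.0558 to 0.0729 over the 2 genes. Neither gene was called in M scaffold or M plate against strips (log2 fold changes of 0.12 to 0.41). Per kb of exon, the level of Col4a1 was 1.19 to 1.38 times that of Col4a2 in all 12 libraries.

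The second pair, Col4a3 and Col4a4 on chromosome 1, has gene starts 72 bases apart and was found mainly in strips. Col4a4 had 0.338, 0.373 and 0.469 CPM in M scaffold, 0.716, 0.330 and 0.267 CPM in M plate, with 0.219, 2.86 and 0.670 CPM in P plate, and 32.7, 49.0 and 33.5 CPM in strips. No culture library came near the strips. Col4a4 was lower than in strips by log2 fold changes of -6.56 ± 0.81 in M scaffold, -6.49 ± 0.81 in M plate and -4.95 ± 0.74 in P plate (adjusted p 0.000111 to 0.000216), and P plate was at -6.45 without its replicate 2. M plate against P plate was at -1.55 ± 0.73 in Col4a4 (adjusted p = 0.151) and was called without P plate replicate 1 (-2.07, adjusted p = 0.0216). Over the fits without a single library this value ranged from -2.07 to -0.05. Col4a3 averaged 0.589, 0.411, 1.60 and 14.8 CPM in M scaffold, M plate, P plate and strips. It was lower than in strips in all cultures (log2 fold changes of -4.62, -5.19 and -3.21 in M scaffold, M plate and P plate) and lower in M plate than in P plate (-1.98 ± 0.41, adjusted p = 0.00640). Col4a3 shares 5.65% of its exon bases with C430014B12Rik, whose reads could not be told apart from its own there without strand.

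The X-linked pair kept a similar ratio of levels in every group except P plate. Col4a5 had 213, 234 and 170 CPM in M scaffold, 396, 329 and 255 CPM in M plate, with 191, 255 and 280 CPM in P plate, and 139, 171 and 169 CPM in strips. M plate lay above strips without overlap, with a log2 fold change of 1.03 ± 0.20 (adjusted p = 0.00152), and P plate was higher than strips by 0.60 ± 0.20 (adjusted p = 0.0219). The P plate call ended without P plate replicate 2 or 3 or strips replicate 1 (0.45 to 0.56, adjusted p 0.0560 to 0.105). Col4a6 had 51.2, 47.2 and 32.8 CPM in M scaffold, 82.0, 77.7 and 54.9 CPM in M plate, with 12.6, 31.7 and 31.7 CPM in P plate, and 33.7, 35.5 and 46.9 CPM in strips. Every M plate library exceeded every P plate and strips library. Col4a6 was higher in M plate than in P plate by 1.5 ± 0.33 (adjusted p = 0.00872) and than in strips by 0.88 ± 0.33 (adjusted p = 0.0399). The call against strips ended without M plate replicate 1 or 2 or any strips replicate (0.77 to 1.02, adjusted p 0.0505 to 0.131). Not called were Col4a5 in M plate against P plate (0.43 ± 0.20, adjusted p = 0.138) and Col4a6 in P plate against strips (-0.61 ± 0.33, adjusted p = 0.124). Per kb, Col4a5 stood at 18.0, 9.55 and 10.5 times the level of Col4a6 in the P plate libraries, and at 4.29 to 6.15 times in the other 9 libraries.

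The multiplexins Col15a1 and Col18a1 encode chains of glycosaminoglycan-carrying collagens at the outer side of basement membranes, and the C-terminal fragment of the type XVIII chain is endostatin. Col18a1 (ENSMUSG00000001435) had 980, 886 and 1256 CPM in M scaffold, 805, 725 and 820 CPM in M plate, with 54.5, 106 and 111 CPM in P plate, and 396, 401 and 510 CPM in strips. The groups did not overlap, with M scaffold highest and P plate lowest. Col18a1 was higher in M plate than in P plate by 3.11 ± 0.27 (adjusted p = 4.83e-05) and lower in P plate than in strips, at -2.27 ± 0.26 (adjusted p = 3.83e-05). Against strips it was higher in M scaffold (1.26 ± 0.25, adjusted p = 0.00219) and in M plate (0.85 ± 0.25, adjusted p = 0.0152), and the M plate call ended without strips replicate 1 or 2 (0.75 and 0.76, adjusted p 0.0636 and 0.0601). Col15a1 had 305, 194 and 565 CPM in M scaffold, 169, 134 and 272 CPM in M plate, with 100, 3.84 and 70.4 CPM in P plate, and 173, 196 and 204 CPM in strips. Its libraries spread widely within the cultures, and it was called in no comparison; P plate against strips was at -1.71 ± 0.82 (adjusted p = 0.0890) and was called without P plate replicate 1 (-2.41, adjusted p = 0.0410) or replicate 2 (-1.16, adjusted p = 0.0413). Col7a1, the chain of anchoring fibrils, averaged 10.6, 6.54, 6.27 and 1.78 CPM in M scaffold, M plate, P plate and strips. It was higher than in strips by 2.59 ± 0.45 in M scaffold, 1.88 ± 0.44 in M plate and 1.82 ± 0.44 in P plate (adjusted p 0.000946 to 0.00442), and M scaffold was at 1.86 without its replicate 3.

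Of the 6 type VI chains, 5 were higher in M plate than in P plate (14.3% of all genes tested) and all 6 were lower in P plate than in strips (32.7% of all genes tested), 2 comparisons that share the P plate libraries. The median log2 fold changes were 3.03 and -4.57, also with Col6a5 at its bound. Col6a1 and Col6a2 encode the short chains that pair with one long chain, usually that of Col6a3. Col6a1 and Col6a2 lie in the same orientation on chromosome 10 with start sites far apart, and their windows, shown for comparison with the type IV pairs, are chr10:76725995-76726294 and chr10:76623581-76623880, both minus strand (RefSeq, GRCm38.p6, capitals for motif matches).
Col6a1: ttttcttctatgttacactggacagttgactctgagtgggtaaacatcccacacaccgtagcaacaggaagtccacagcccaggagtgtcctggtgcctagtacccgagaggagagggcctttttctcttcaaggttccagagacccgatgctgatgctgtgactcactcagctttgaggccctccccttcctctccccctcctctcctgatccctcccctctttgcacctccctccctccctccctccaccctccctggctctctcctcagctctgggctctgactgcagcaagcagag
Col6a2: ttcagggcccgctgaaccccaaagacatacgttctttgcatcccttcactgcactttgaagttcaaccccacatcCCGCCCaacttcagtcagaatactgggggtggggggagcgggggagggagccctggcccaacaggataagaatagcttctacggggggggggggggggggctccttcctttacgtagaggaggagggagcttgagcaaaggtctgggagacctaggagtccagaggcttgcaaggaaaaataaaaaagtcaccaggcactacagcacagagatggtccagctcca
The Col6a1 window held none of the 3 motifs, and that of Col6a2 held 1 GGGCGG on the other strand.

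Col6a1 (ENSMUSG00000001119) had 2010, 1980 and 3074 CPM in M scaffold, 2198, 1697 and 1895 CPM in M plate, with 330, 315 and 226 CPM in P plate, and 1458, 1329 and 1465 CPM in strips. P plate was lowest without overlap. The log2 fold change was 2.73 ± 0.23 in M plate against P plate (adjusted p = 4.60e-05) and -2.29 ± 0.23 in P plate against strips (adjusted p = 1.45e-05). Col6a2 had 1346, 1049 and 1918 CPM in M scaffold, 1619, 1107 and 1260 CPM in M plate, with 157, 137 and 103 CPM in P plate, and 1084, 961 and 1093 CPM in strips. P plate again lay below all other libraries, with 3.33 ± 0.27 in M plate against P plate (adjusted p = 3.76e-05) and -2.98 ± 0.26 in P plate against strips (adjusted p = 6.61e-06). Col6a3, whose C-terminal fragment is endotrophin, had 1195, 929 and 1009 CPM in M scaffold, 581, 424 and 573 CPM in M plate, with 301, 121 and 75.0 CPM in P plate, and 499, 645 and 640 CPM in strips. Col6a3 was higher in M plate than in P plate by 1.67 ± 0.41 (adjusted p = 0.0150) and lower in P plate than in strips, at -1.85 ± 0.41 (adjusted p = 0.00283). P plate replicate 1 was its highest P plate library, and without it these became 2.43 and -2.64. Col6a1 was called in M scaffold against strips (0.73 ± 0.22, adjusted p = 0.0167), a call that ended without M scaffold replicate 3 (0.50, adjusted p = 0.0585) or strips replicate 2 (0.67, adjusted p = 0.0623). Per kb of exon, the level of Col6a1 was 3.16 ± 0.387, 2.78 ± 0.178, 4.18 ± 0.189 and 2.58 ± 0.0451 times that of Col6a2 in M scaffold, M plate, P plate and strips. By transcript length these ratios were 1.89, 1.66, 2.5 and 1.54.

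The 3 further long chains, encoded side by side on the minus strand of chromosome 9, can take the place of the Col6a3 chain. Col6a4 (105989454 to 106096783) had 0.430, 0.652 and 0.388 CPM in M scaffold, 0.344, 0.558 and 0.299 CPM in M plate, with 0.301, 0.154 and 0.701 CPM in P plate, and 26.4, 23.6 and 32.1 CPM in strips. All cultures lay far below the strips, at -5.83 ± 0.47 in M scaffold, -6.10 ± 0.47 in M plate and -6.15 ± 0.48 in P plate (adjusted p 3.33e-06 to 1.73e-05; P plate -6.91 without its replicate 3). Its neighbour Col6a5 (105856078 to 105960643) did not follow it: M scaffold had 3.16, 8.17 and 2.53 CPM, M plate 8.22, 9.16 and 7.86 CPM and strips 6.21, 4.04 and 6.22 CPM, while P plate had no counts in any library. With the floor set at 3 counts over the P plate group (0.0299 CPM) and with the mean CPM of the other group, Col6a5 was at least 282-fold higher in M plate than in P plate and at least 184-fold lower in P plate than in strips (adjusted p = 8.25e-05 and 1.89e-05). Col6a6 (105687809 to 105828160) had 7.53, 9.97 and 4.75 CPM in M scaffold, 13.0, 10.9 and 10.8 CPM in M plate, and 4.27, 1.33 and 6.80 CPM in strips, and only 3 counts over the P plate libraries. From counts pooled over each group, in which deeper libraries weigh more, the ratio of M plate to P plate was 382 (95% counting interval 130 to 1853, adjusted p = 7.22e-05) and that of strips to P plate 177 (60.2 to 858, adjusted p = 3.62e-05). The fitted log2 fold changes of Col6a6, 8.48 and -7.01, became 9.31 and -7.88 without P plate replicate 1. M plate was higher than strips in Col6a6 by 1.47 ± 0.50 (adjusted p = 0.0282), and the call ended without any M plate replicate or without strips replicate 1 or 2 (1.03 to 1.52, adjusted p 0.0518 to 0.0771). Intervals cover counting error only. Col6a4 shares 3.39% of its exon bases with other annotated genes.

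**Figure D3:**
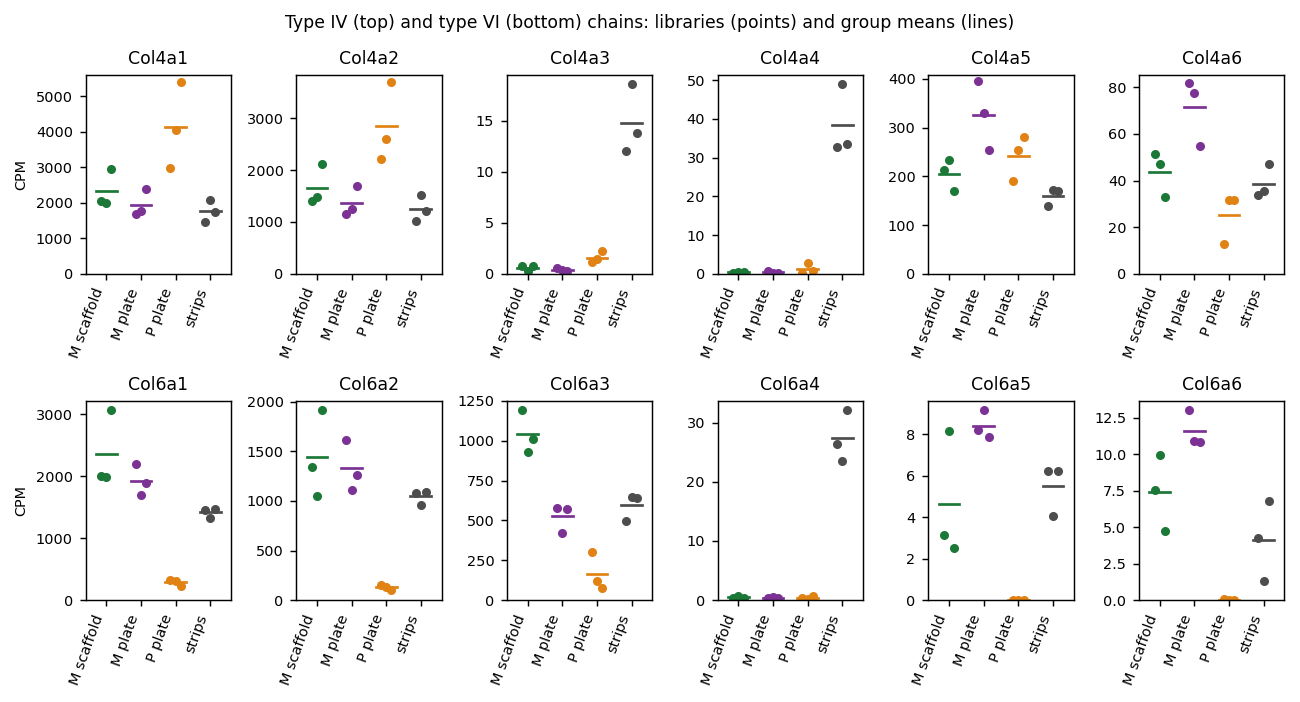
CPM of the 6 type IV chains (top) and the 6 type VI chains (bottom), with a point per library and a line at the group mean. P plate is highest for Col4a1 and Col4a2 and lowest for Col6a1, Col6a2, Col6a3, Col6a5 and Col6a6, and strips stand alone for Col4a3, Col4a4 and Col6a4.

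Among fibrillar chains, type I was higher in every culture than in strips, and type III followed the medium. Col1a1 (ENSMUSG00000001506) had 7745, 9169 and 12977 CPM in M scaffold, 5219, 5575 and 6838 CPM in M plate, with 5576, 4260 and 6011 CPM in P plate, and 2545, 2298 and 2873 CPM in strips. All cultures lay above the strips and M plate overlapped with P plate. Log2 fold changes against strips were 1.95 ± 0.27 in M scaffold (adjusted p = 0.000250), 1.19 ± 0.26 in M plate (adjusted p = 0.00299) and 1.04 ± 0.26 in P plate (adjusted p = 0.00522), and M plate against P plate was at 0.15 ± 0.26 (adjusted p = 0.701). Col1a2, the partner chain of type I, had 7199, 9392 and 10878 CPM in M scaffold, 5716, 6242 and 7181 CPM in M plate, with 3303, 4866 and 5328 CPM in P plate, and 1976, 1924 and 2214 CPM in strips. The cultures again lay above the strips, by 2.17 ± 0.26 in M scaffold, 1.65 ± 0.25 in M plate and 1.14 ± 0.25 in P plate (adjusted p 0.000122 to 0.00247). The triple helix of type I holds more of the Col1a1 chain than of the Col1a2 chain. Per kb of summed exons, Col1a1 was at 2.05, 1.74, 2.33 and 2.39 times the level of Col1a2 in M scaffold, M plate, P plate and strips, but at 0.976, 0.829, 1.11 and 1.14 times by the length of the longest protein-coding transcript, since the summed exons of Col1a2 are much longer than that transcript.

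Col3a1 (ENSMUSG00000026043), the sole chain of type III, had 12152, 11977 and 11125 CPM in M scaffold, 12574, 8654 and 9298 CPM in M plate, with 2572, 2403 and 3284 CPM in P plate, and 6572, 6125 and 7224 CPM in strips. P plate was below all other libraries and both M medium groups were above the strips. Col3a1 was higher in M plate than in P plate by 1.89 ± 0.24 (adjusted p = 0.000403) and lower in P plate than in strips, at -1.27 ± 0.24 (adjusted p = 0.000969). In a fit of the M plate and P plate libraries alone, with the replicate number as a block, it was not called (1.88, adjusted p = 0.0663). M scaffold and M plate were higher than strips by 0.82 ± 0.24 (adjusted p = 0.0144) and 0.62 ± 0.24 (adjusted p = 0.0473). The M plate call ended without any 1 of the 6 libraries (0.42 to 0.71, adjusted p 0.0508 to 0.178), and the M scaffold call without strips replicate 1 or 2 (0.80 and 0.75, adjusted p 0.0531 and 0.0635). Col3a1 had the first rank of level per kb in M plate (1037 ± 214 CPM per kb) and strips (676 ± 56.3 CPM per kb), and Col1a1 in M scaffold (1518 ± 412 CPM per kb) and P plate (805 ± 139 CPM per kb). The first 2 in M scaffold and in M plate were within their spread, and by transcript length Col3a1 was first in M scaffold too. In P plate Col4a1 (554 ± 164 CPM per kb) was at rank 2 and Col3a1 (280 ± 47.6 CPM per kb) at rank 5, but by transcript length Col1a2 was at rank 2, Col4a1 at rank 3 and Col3a1 at rank 4 (841, 626 and 495 CPM per kb). Per kb, the ratio of Col3a1 to Col1a1 was 0.832 ± 0.241, 1.19 ± 0.374, 0.350 ± 0.0368 and 1.73 ± 0.0508 in M scaffold, M plate, P plate and strips.

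Type V chains regulate fibril diameter. Col5a2, which lies next to Col3a1 on chromosome 1 (45374321 to 45503282, minus strand, beside 45311538 to 45349706, plus strand), had 1526, 1800 and 2286 CPM in M scaffold, 1657, 1341 and 1688 CPM in M plate, with 1748, 2121 and 2731 CPM in P plate, and 590, 569 and 616 CPM in strips. All cultures lay above the strips. It was higher by 1.66 ± 0.21 in M scaffold, 1.40 ± 0.21 in M plate and 1.89 ± 0.21 in P plate (adjusted p 3.40e-05 to 0.000340), whereas its neighbour Col3a1 was lower in P plate than in strips. M plate against P plate was at -0.49 ± 0.21 (adjusted p = 0.109), and was called without P plate replicate 1 (-0.63, adjusted p = 0.0381). Col5a1 had 1063, 989 and 2144 CPM in M scaffold, 723, 592 and 900 CPM in M plate, with 942, 375 and 807 CPM in P plate, and 565, 612 and 687 CPM in strips. It was higher in M scaffold than in strips by 1.17 ± 0.37 (adjusted p = 0.0223), a call that ended without M scaffold replicate 3 (0.73, adjusted p = 0.0965) or strips replicate 1 or 2 (1.09 and 1.15, adjusted p 0.0752 and 0.0621). Col5a3 had 112, 52.7 and 165 CPM in M scaffold, 42.6, 26.8 and 43.7 CPM in M plate, with 59.1, 9.50 and 21.6 CPM in P plate, and 64.0, 61.5 and 68.5 CPM in strips. Col5a3 was called in no comparison. M plate against strips, whose libraries did not overlap, was at -0.78 and was called in a fit of those 6 libraries alone (-0.76, adjusted p = 0.00641), and P plate against strips stood at -1.10 ± 0.57 (adjusted p = 0.113) and was called without P plate replicate 1 (-2.10, adjusted p = 0.00337).

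Types XXIV and XXVII, fibrillar chains best known from bone and cartilage, went opposite ways against strips but not between the cultures. Col24a1 had 80.6, 89.5 and 79.3 CPM in M scaffold, 44.2, 58.4 and 62.1 CPM in M plate, with 47.6, 17.9 and 18.8 CPM in P plate, and 7.01, 5.09 and 5.04 CPM in strips. It was higher than in strips by 3.86 ± 0.37 in M scaffold, 3.27 ± 0.36 in M plate and 2.30 ± 0.35 in P plate (adjusted p 4.26e-05 to 0.000247), with P plate at 1.65 without its replicate 1. M plate against P plate was at 0.97 ± 0.33 (adjusted p = 0.0576) and was called without P plate replicate 1 (1.58, adjusted p = 0.000265). Col27a1 had 67.5, 53.7 and 63.7 CPM in M scaffold, 39.3, 33.3 and 42.1 CPM in M plate, with 7.77, 31.4 and 23.0 CPM in P plate, and 243, 193 and 215 CPM in strips. All cultures lay below the strips, at -1.82 ± 0.38 in M scaffold, -2.51 ± 0.39 in M plate and -3.39 ± 0.40 in P plate (adjusted p 4.67e-05 to 0.00258). M plate against P plate was at 0.88 ± 0.37 (adjusted p = 0.109) and was called without P plate replicate 2 (1.31, adjusted p = 0.0268).

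Chains of types II and XI are the fibrillar collagens of cartilage, where the Col11a1 and Col11a2 chains start the type II fibril. Col11a1 had 6.91, 3.98 and 14.9 CPM in M scaffold, 9.17, 9.39 and 13.6 CPM in M plate, with 39.9, 28.1 and 46.5 CPM in P plate, and 20.1, 20.8 and 23.2 CPM in strips. P plate was highest without overlap. Against strips, P plate was at 0.84 ± 0.39 (adjusted p = 0.0835) and M plate at -0.99 ± 0.39 (adjusted p = 0.0523), neither of them called. In fits of the 6 libraries compared alone both were called (0.80 and -0.98, adjusted p 0.015 and 0.00122). Col11a1 was lower in M plate than in P plate, at -1.83 ± 0.40 (adjusted p = 0.00823) and lower in M scaffold than in strips, at -1.30 ± 0.40 (adjusted p = 0.0183). This M scaffold value was -1.16 without M scaffold replicate 1 (adjusted p = 0.0635) and -1.97 without M scaffold replicate 3. Col11a2 averaged 1.59, 3.38, 3.91 and 3.86 CPM in M scaffold, M plate, P plate and strips, and was lower in M scaffold than in strips (-1.28 ± 0.27, adjusted p = 0.00265). Col2a1, the chain of type II, stayed at 0.194, 0.135, 0.150 and 0.405 CPM on average. It was lower than in strips in M plate (-1.54 ± 0.43, adjusted p = 0.0110) and P plate (-1.37 ± 0.44, adjusted p = 0.0182). These calls ended without M plate replicate 3 (-1.39, adjusted p = 0.0513), and without P plate replicate 2 (-1.25, adjusted p = 0.0576) or strips replicate 2 (-1.15, adjusted p = 0.0574). M scaffold stood at -1.02 ± 0.41 against strips (adjusted p = 0.0571) and was called without M scaffold replicate 1 (-1.39, adjusted p = 0.0228) or strips replicate 3 (-1.26, adjusted p = 0.0492).

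A pair of the large fibril-associated chains, those of types XII and XIV, went opposite ways with the medium. Col12a1 had 300, 153 and 647 CPM in M scaffold, 725, 597 and 550 CPM in M plate, with 1052, 2177 and 2142 CPM in P plate, and 258, 216 and 273 CPM in strips. P plate was highest without overlap. Col12a1 exceeded strips in P plate by 2.85 ± 0.47 (adjusted p = 0.000434), lower in M plate than in P plate, at -1.52 ± 0.45 (adjusted p = 0.0329) and higher in M plate than in strips by 1.32 ± 0.45 (adjusted p = 0.0282). The call between M plate and P plate ended without any M plate replicate or P plate replicate 2 or 3 (-1.65 to -1.36, adjusted p 0.0731 to 0.0997), and that between M plate and strips without M plate replicate 1 or 2 or any strips replicate (1.19 to 1.37, adjusted p 0.0578 to 0.0906). Col14a1 (ENSMUSG00000022371) had 484, 547 and 253 CPM in M scaffold, 864, 714 and 663 CPM in M plate, with 58.5, 32.6 and 21.0 CPM in P plate, and 746, 860 and 753 CPM in strips. M plate overlapped with strips, and P plate lay far below. Col14a1 was higher in M plate than in P plate by 4.32 ± 0.41 (adjusted p = 7.07e-05) and lower in P plate than in strips, at -4.39 ± 0.41 (adjusted p = 9.28e-06), while M plate against strips was at -0.07 ± 0.35 (adjusted p = 0.873).

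The 3 chains of type IX, a cartilage collagen, form a single molecule. Each was higher in strips than in any culture, Col9a1 by the most and Col9a3 by the least. Col9a1 had 0.215, 0.217 and 0.126 CPM in M scaffold, 0.0860, 0.127 and 0.0157 CPM in M plate, with 0, 0.0307 and 0 CPM in P plate, and 26.4, 36.0 and 35.3 CPM in strips. It was lower than in strips, at -7.53 ± 0.48 in M scaffold (adjusted p = 8.16e-06) and -8.84 ± 0.53 in M plate (adjusted p = 3.91e-06), the M plate value being -9.51 without M plate replicate 2 and -8.20 without replicate 3. The 3 P plate libraries held 1 count in all, and the ratio of strips to P plate was 3332 (95% counting interval 598 to 131644, adjusted p = 6.81e-07). Col9a2 had 11.7, 9.85 and 11.8 CPM in M scaffold, 11.9, 9.64 and 6.04 CPM in M plate, with 1.61, 2.98 and 0.829 CPM in P plate, and 80.7, 83.8 and 90.2 CPM in strips. It was lower than in strips, at -2.93 ± 0.37, -3.21 ± 0.38 and -5.55 ± 0.43 in M scaffold, M plate and P plate (adjusted p 3.02e-06 to 0.000165), and higher in M plate than in P plate by 2.34 ± 0.38 (adjusted p = 0.00159). Col9a3 averaged 1.40, 1.10, 0.942 and 4.13 CPM in M scaffold, M plate, P plate and strips and was lower in each culture than in strips (-1.57, -1.91 and -2.13, adjusted p 2.34e-05 to 0.000303). It shares 6.07% of its exon bases with Tcfl5. Beside them, the cartilage markers, of which 3 of 5 passed the filter, summed to 8.75 to 24.7 CPM in M scaffold. They summed to 3.06 to 4.19 CPM in P plate and 5.12 to 7.38 CPM in strips, with M plate within the range of M scaffold. The part of cartilage cells in the result was not tested.

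Of the remaining fibril-associated chains, Col20a1 had 17.8, 9.35 and 40.1 CPM in M scaffold, 5.53, 4.11 and 9.81 CPM in M plate, with 1.97, 2.92 and 2.26 CPM in P plate, and 41.1, 54.7 and 53.0 CPM in strips. It was lower than in strips, at -2.93 ± 0.50 in M plate (adjusted p = 0.000678) and -4.38 ± 0.54 in P plate (adjusted p = 5.82e-05). M scaffold against strips was at -1.14 ± 0.46 (adjusted p = 0.0605), and was called without M scaffold replicate 3 (-1.86, adjusted p = 0.00466). Col16a1 had 271, 368 and 559 CPM in M scaffold, 278, 242 and 307 CPM in M plate, with 122, 562 and 390 CPM in P plate, and 195, 194 and 198 CPM in strips. The cultures spread and the strips did not, and no comparison called it; without P plate replicate 1 it was higher in P plate than in strips (1.24, adjusted p = 0.00220) and lower in M plate than in P plate (-0.79, adjusted p = 0.0475). Col22a1, known from tissue junctions of muscle, averaged 1.53, 1.19, 0.470 and 0.798 CPM in M scaffold, M plate, P plate and strips. Col22a1 was higher in M plate than in P plate by 1.34 ± 0.42 (adjusted p = 0.0414), and the call ended without any 1 of the 6 libraries (1.18 to 1.46, adjusted p 0.0688 to 0.129). Its values of 0.99 ± 0.41 in M scaffold (adjusted p = 0.0626) and 0.62 ± 0.41 in M plate (adjusted p = 0.221) against strips became calls without strips replicate 2 (1.5 and 1.12, adjusted p 0.00958 and 0.0303), and the M scaffold value also without M scaffold replicate 1 (1.21, adjusted p = 0.0409). Col19a1 averaged 0.0891, 0.448, 0.115 and 0.149 CPM and was called in none. It was called without P plate replicate 1 in M plate against P plate (2.80, adjusted p = 0.0378) and without strips replicate 2 in M plate against strips (2.28, adjusted p = 0.0306).

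Of the transmembrane chains, 3 of 4 were higher in M plate than in P plate (14.3% of all genes tested) and all 4 were lower in P plate than in strips (32.7% of all genes tested). Col23a1 (ENSMUSG00000063564) had 62.8, 41.7 and 16.6 CPM in M scaffold, 149, 158 and 113 CPM in M plate, with 1.56, 2.06 and 1.18 CPM in P plate, and 127, 126 and 133 CPM in strips. M plate overlapped with strips, M scaffold lay below both, and P plate lay lowest. Col23a1 was higher in M plate than in P plate by 6.45 ± 0.48 (adjusted p = 2.82e-05) and lower than in strips, at -6.33 ± 0.48 in P plate (adjusted p = 2.75e-06) and -1.68 ± 0.38 in M scaffold (adjusted p = 0.00420). Col25a1, whose ectodomain is a component of amyloid plaques in the brain, had 5.78, 8.45 and 2.61 CPM in M scaffold, 2.58, 3.05 and 2.19 CPM in M plate, with 0.0274, 0.0307 and 0.0638 CPM in P plate, and 8.76, 7.05 and 10.6 CPM in strips. Col25a1 was higher in M plate than in P plate by 5.93 ± 0.56 (adjusted p = 7.28e-05) and lower than in strips, at -7.69 ± 0.57 in P plate (adjusted p = 2.47e-06) and -1.76 ± 0.37 in M plate (adjusted p = 0.00262). Its P plate libraries held only 1, 1 and 2 counts, so the size of its differences from P plate is uncertain. Col13a1, a chain of the neuromuscular junction, averaged 7.60, 2.94, 0.322 and 12.4 CPM. Col13a1 was higher in M plate than in P plate by 3.14 ± 0.50 (4.35 without P plate replicate 1) and lower in P plate than in strips, at -5.22 ± 0.53 (-6.47 without that library) and in M plate than in strips, at -2.08 ± 0.44. Col17a1, the hemidesmosome chain of epithelia, averaged 1.36, 0.900, 0.463 and 4.92 CPM and was lower in M scaffold, M plate and P plate than in strips (-1.85, -2.46 and -3.41, adjusted p 3.29e-05 to 0.00152). Beside it, the epithelial markers summed to at least 101 CPM in strips and at most 95.1 CPM in any culture.

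Among the other chains, Col8a1 and Col8a2 encode the short network chains of type VIII, found under endothelia and in remodelled vessel walls, and both were higher in every culture than in strips. Col8a1 had 104, 192 and 169 CPM in M scaffold, 273, 212 and 233 CPM in M plate, with 193, 153 and 191 CPM in P plate, and 52.0, 47.5 and 44.5 CPM in strips. It exceeded strips by 1.69 ± 0.21, 2.32 ± 0.21 and 1.90 ± 0.21 in M scaffold, M plate and P plate (adjusted p 2.30e-05 to 0.000147). Col8a2 had 156, 185 and 168 CPM in M scaffold, 191, 158 and 166 CPM in M plate, with 39.5, 471 and 347 CPM in P plate, and 25.0, 25.6 and 26.6 CPM in strips. It exceeded strips by 2.72 ± 0.63, 2.74 ± 0.63 and 3.47 ± 0.65 in the same groups (adjusted p 0.000948 to 0.00483). P plate replicate 1 was far below its other 2 libraries, and without it M plate was lower than P plate, at -1.25 (adjusted p = 0.000274), against -0.73 ± 0.59 with it (adjusted p = 0.400).

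Col26a1 had 2.21, 3.39 and 1.33 CPM in M scaffold, 0.487, 0.406 and 0.440 CPM in M plate, with 0.356, 0.461 and 0.478 CPM in P plate, and 19.8, 27.8 and 25.8 CPM in strips. It was lower than in strips, at -3.42 ± 0.31, -5.78 ± 0.36 and -5.82 ± 0.36 in M scaffold, M plate and P plate (adjusted p 9.62e-07 to 3.37e-05). Col28a1, known from peripheral nerve and its glia, had 13.3, 86.9 and 88.0 CPM in M scaffold, 66.2, 64.9 and 108 CPM in M plate, with 6.65, 4.86 and 3.67 CPM in P plate, and 12.3, 17.6 and 15.3 CPM in strips. M scaffold replicate 1 lay within the range of the strips while its other 2 libraries were far above. Col28a1 was higher in M plate than in P plate by 3.98 ± 0.61 (adjusted p = 0.00118), higher than in strips by 2.06 ± 0.56 in M scaffold (adjusted p = 0.0110) and 2.40 ± 0.57 in M plate (adjusted p = 0.00475), and lower in P plate than in strips, at -1.57 ± 0.57 (adjusted p = 0.0318). The P plate call ended without P plate replicate 2 or 3 or strips replicate 2 or 3 (-1.58 to -1.42, adjusted p 0.0615 to 0.0909). The glia markers summed to 368 to 846, 202 to 251, 26.2 to 46.4 and 172 to 214 CPM in M scaffold, M plate, P plate and strips. In M scaffold replicate 1, where Col28a1 was at 13.3 CPM, they summed to 368 CPM. The glia marker sums were thus similar in M plate and strips, where Col28a1 differed. Their part in the result was not tested. Col10a1, the chain of hypertrophic cartilage, averaged 0.0871, 0.100, 0.526 and 0.744 CPM in M scaffold, M plate, P plate and strips. It was lower in M plate than in P plate, at -2.41 ± 0.57 (adjusted p = 0.0121; -2.11 and 0.0553 without M plate replicate 3), and lower than in strips, at -3.20 ± 0.58 in M scaffold and -2.86 ± 0.56 in M plate (adjusted p 0.00123 and 0.00164).

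**Figure D4:**
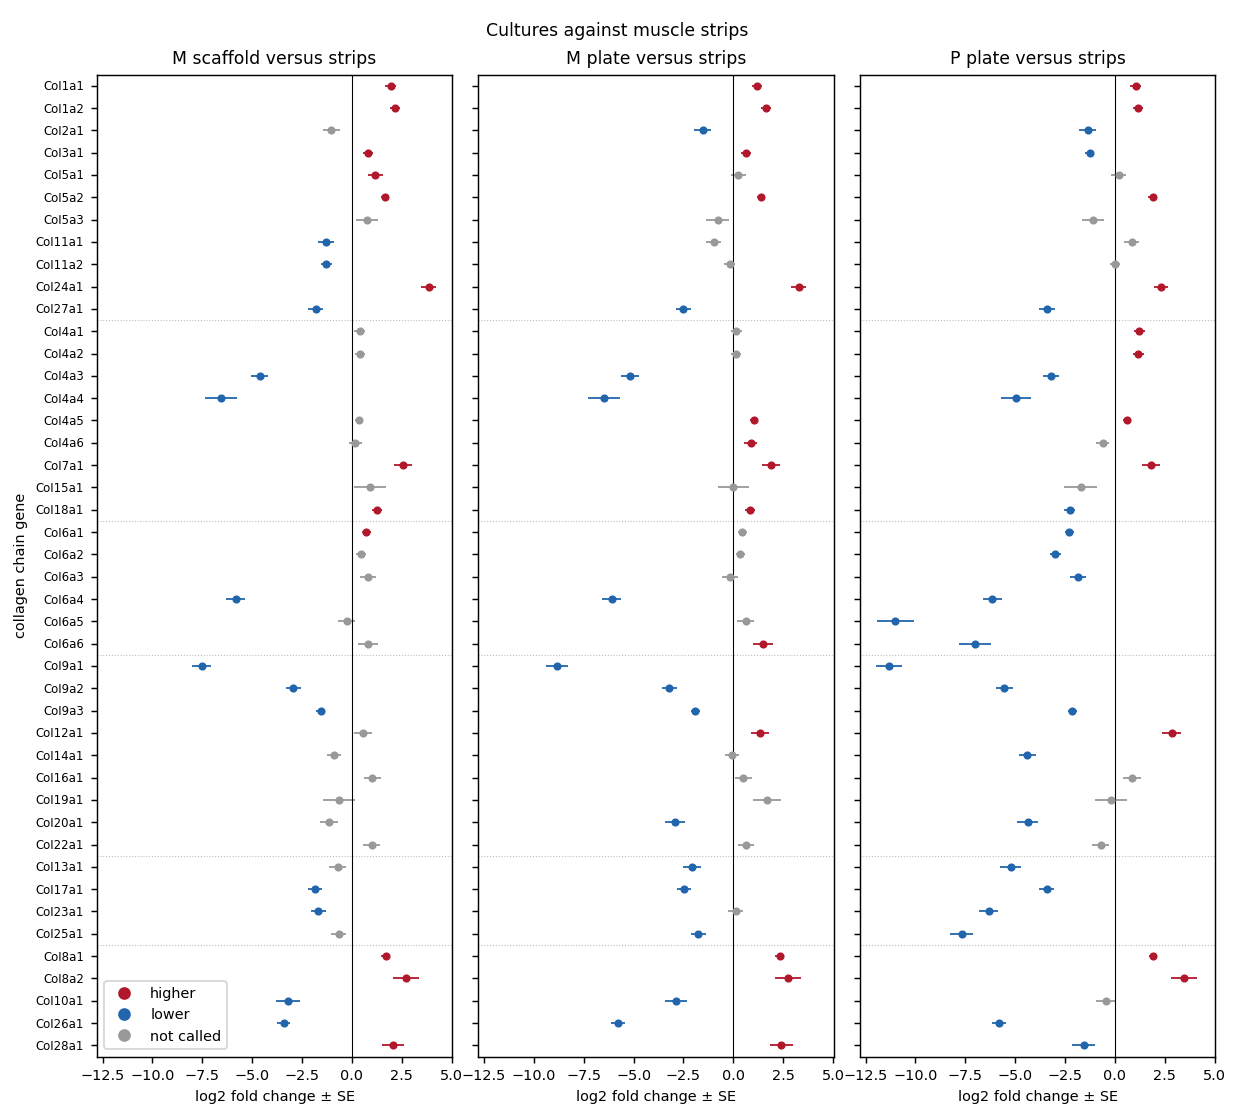
Log2 fold change ± SE of each collagen gene in M scaffold, M plate and P plate against strips, red where higher, blue where lower and grey where not called, with dotted lines between classes. The P plate panel has 23 blue points, among them all 6 of type VI, whereas M plate and M scaffold have 1 blue type VI point each, Col6a4; the fitted points of Col6a5, Col6a6 and Col9a1 in P plate rest on 0 to 3 counts and are not bounds.

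The scaffold comparison called 2 collagen genes. Col26a1 was higher in M scaffold than in M plate by 2.36 ± 0.32 (adjusted p = 0.0102), and Col23a1 was lower, at -1.80 ± 0.38 (adjusted p = 0.0399), with no overlap of libraries in either gene. The Col26a1 call ended without M plate replicate 2 or 3 (2.31 and 2.35, adjusted p 0.0621 and 0.0529), and the Col23a1 call without M scaffold replicate 2 or any M plate replicate (-1.93 to -1.70, adjusted p 0.0797 to 0.149). Other shifts were not called: Col1a1 stood at 0.76 ± 0.26 (adjusted p = 0.126), Col1a2 at 0.52 ± 0.25 (adjusted p = 0.257), Col5a1 at 0.92 ± 0.37 (adjusted p = 0.184), Col6a3 at 0.99 ± 0.41 (adjusted p = 0.193) and Col11a2 at -1.08 ± 0.27 (adjusted p = 0.0547). In 3 further genes a single library decided the call: Col20a1 was called without M scaffold replicate 2 (2.18, adjusted p = 0.0354), Col25a1 without M scaffold replicate 3 (1.45, adjusted p = 0.0382) and Col6a5 without M scaffold replicate 2 (-1.54, adjusted p = 0.0420).

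Libraries of M scaffold and M plate with the same replicate number deviated together, so the fit with the replicate number as a block is given beside these values. Over all 12 libraries it called the same 2 genes, Col26a1 at 2.30 (adjusted p = 0.0191) and Col23a1 at -1.90 (adjusted p = 0.0337). Within the 6 libraries compared it called 13, of which 9 were higher and 4 lower in M scaffold. Those higher were Col26a1 (2.26), Col20a1 (1.66), Col5a3 (1.44), Col13a1 (1.40), Col6a3 (1.01), Col5a1 (0.86), Col15a1 (0.82), Col27a1 (0.70) and Col24a1 (0.62), with adjusted p values of 0.0220 to 0.0486. Those lower were Col23a1 (-1.97), Col11a2 (-1.07), Col4a6 (-0.70) and Col4a5 (-0.64), with adjusted p values of 0.0211 to 0.0386. DESeq2 called 4 higher and 3 lower and limma-voom 2 higher and 3 lower. For none of these fits is the share of all genes called given here, so their counts cannot be set against it. Beside the collagen values, endothelial markers summed to less in every M scaffold library than in any M plate library, with 1 of 8 called lower. Without overlap, the sums in M scaffold were above those in M plate for enteric glia (4 of 8 called higher), enteric neurons (2 of 8), pericytes (1 of 6), interstitial cells of Cajal (1 of 5) and adipocytes (0 of 6), and below for mesothelium (0 of 6). Their part in the result was not tested.

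**Figure D5:**
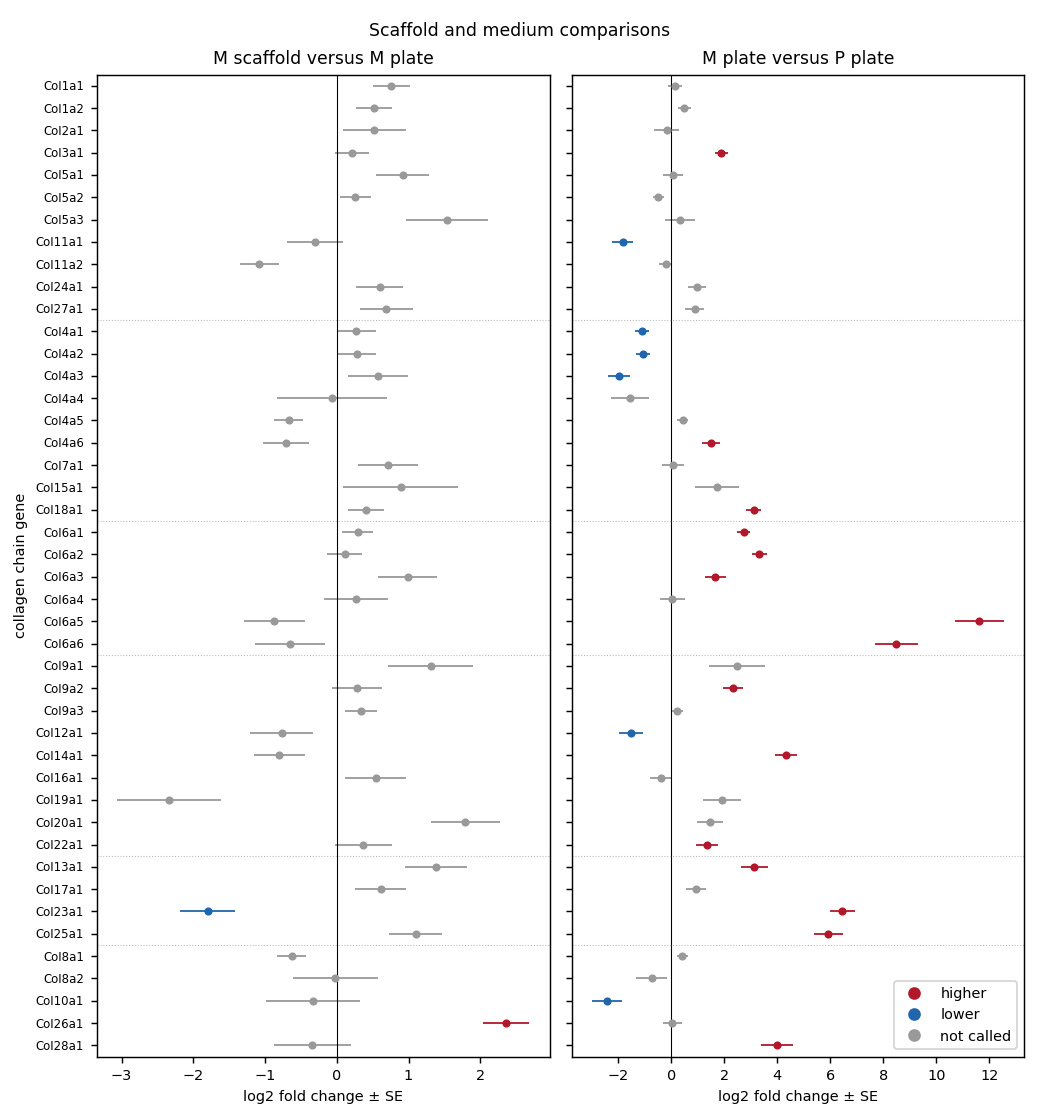
Log2 fold change ± SE of each collagen gene in M scaffold against M plate (left) and M plate against P plate (right), coloured as higher (red), lower (blue) or not called (grey). Only Col26a1 and Col23a1 are coloured on the left, and 15 red and 6 blue points stand on the right; the fitted points of Col6a5 and Col6a6 rest on 0 and 3 counts in P plate.

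Collagen chains are hydroxylated, folded and trimmed before they form fibres, and 30 genes of that work were read beside the chains, as a list chosen with earlier results of these data known. Against strips, 22 were higher and 5 lower in P plate (median log2 fold change 0.79), beside 30.5% and 32.7% of all genes. In M plate 15 were higher and 3 lower (median 0.45), beside 26.5% and 28.4% of all genes, and in M scaffold 16 were higher and 3 lower (median 0.71), beside 24.5% and 27.6%. P4ha1, a prolyl hydroxylase subunit, was higher than in strips by 2.27 ± 0.33, 1.86 ± 0.32 and 2.93 ± 0.34 in M scaffold, M plate and P plate. The prolyl hydroxylase subunit P4ha3 was higher by 1.51 ± 0.18 in M plate and 1.77 ± 0.18 in P plate, the lysyl hydroxylases Plod1 by 1.65 ± 0.21 in M scaffold and 1.87 ± 0.21 in M plate and Plod3 by 1.83 ± 0.21 in P plate, and the collagen galactosyltransferase Colgalt1 by 1.18 ± 0.16 in P plate. Creb3l1, a transcription factor of type I collagen genes in bone, was higher by 1.73 ± 0.16 in M scaffold and 1.40 ± 0.16 in M plate. Crtap, of the prolyl 3-hydroxylase complex, was higher by 1.59 ± 0.16 and 1.31 ± 0.16 in those groups, and P3h3 by 1.23 ± 0.14 in M scaffold. The tolloid proteases Tll1 and Tll2, relatives of the enzyme that trims the C-propeptide, were lower. Tll2 was at -4.20 ± 0.57 in M plate and -5.08 ± 0.64 in P plate, and Tll1 was at -3.45 ± 0.38 in M scaffold. Tll2 was scarce, at 0.131, 0.0684 and 2.43 CPM on average in M plate, P plate and strips. Adjusted p values of the genes named so far were at most 0.000818. The trimming enzyme itself, Bmp1, averaged 311, 244, 292 and 175 CPM in M scaffold, M plate, P plate and strips. It was higher in P plate than in strips (0.73 ± 0.28, adjusted p = 0.0413) and not called in M plate (0.48 ± 0.28, adjusted p = 0.175). The P plate call ended without P plate replicate 1 or 3 or any strips replicate. Bmp1 was also called higher in M scaffold, until M scaffold replicate 2 or 3 or any strips replicate was left out.

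In M plate against P plate the production list had 4 higher and 6 lower (median -0.30), beside 14.3% and 10.6% of all genes. Lower in M plate were P4hb, the other prolyl hydroxylase subunit (-0.91 ± 0.22, adjusted p = 0.0135), P4ha1 (-1.07 ± 0.32, adjusted p = 0.0323), Mia3, a collagen export receptor (-0.37 ± 0.11, adjusted p = 0.0336) and Plod3 (-0.67 ± 0.21, adjusted p = 0.0384). Colgalt2 was higher by 4.34 ± 0.57 (adjusted p = 0.000464). The P4hb call ended without M plate replicate 1 (-0.88, adjusted p = 0.0557), that of P4ha1 without any M plate replicate or P plate replicate 3 (-1.14 to -0.96, adjusted p 0.0775 to 0.0985), and those of Mia3 and Plod3 without any M plate replicate or P plate replicate 1 or 3 (-0.38 to -0.23 and -0.76 to -0.57, adjusted p 0.0570 to 0.126). Without M plate replicate 1 the list had 3 calls in all, without M plate replicate 2 or 3 it had 5 and without P plate replicate 3 it had 4. In M scaffold against M plate, P4ha3 was lower (-1.07 ± 0.18, adjusted p = 0.0205) and no gene of the list was higher, beside 3.18% of all genes called. Without M scaffold replicate 1 or any M plate replicate edgeR made 0 calls, with P4ha3 at -1.11 to -0.97 (adjusted p 0.0518 to 0.0818).

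Of 10 collagen receptors, 9 passed the filter. Itga1, the integrin subunit that binds type IV collagen in smooth muscle, was higher in M plate than in P plate by 1.30 ± 0.21 (adjusted p = 0.00164) and lower than in strips, at -1.37 ± 0.21 in P plate (adjusted p = 0.000275) and -0.55 ± 0.21 in M scaffold (adjusted p = 0.0476). The M scaffold call ended without M scaffold replicate 2 or 3 or any strips replicate (-0.65 to -0.41, adjusted p 0.0530 to 0.156). Itga10 was also higher in M plate than in P plate (0.88 ± 0.28, adjusted p = 0.0429), a call that ended without any M plate replicate or P plate replicate 1 or 3 (0.66 to 1.01, adjusted p 0.0543 to 0.138), and the list's 2 calls there became 1 without any M plate replicate or P plate replicate 3, and 4 without P plate replicate 2. Itga11, the integrin subunit for fibrillar collagen on fibroblasts, was higher than in strips by 4.67 ± 0.55 in M scaffold, 4.41 ± 0.54 in M plate and 5.73 ± 0.57 in P plate (adjusted p 1.56e-05 to 0.000113), with M scaffold at 3.80 without its replicate 3. Mrc2, an endocytic collagen receptor, was higher by 2.46 ± 0.24, 1.48 ± 0.24 and 1.25 ± 0.23, and Lair1, a collagen receptor of leukocytes, by 3.43 ± 0.65, 3.75 ± 0.65 and 4.32 ± 0.67 in the same groups (adjusted p at most 0.00151). Lair1 had 14.5, 10.4 and 19.3 CPM in M scaffold, 15.7, 21.7 and 17.6 CPM in M plate, with 55.8, 19.4 and 6.31 CPM in P plate, and 1.20, 1.33 and 1.52 CPM in strips, and P plate was at 3.20 without its replicate 1 (adjusted p = 0.000123). Beside it, the macrophage markers summed to at least 1623 CPM in every culture library and at most 184 CPM in strips, and their part in the result was not tested. Itgb1, the shared beta subunit, was higher in P plate by 0.52 ± 0.21 (adjusted p = 0.0488), and Itga2 was lower in M plate, at -1.19 ± 0.37 (adjusted p = 0.0196). The Itgb1 call ended without P plate replicate 1 or 3 or any strips replicate (0.27 to 0.54, adjusted p 0.0977 to 0.223), and the Itga2 call without M plate replicate 1 or 3 or strips replicate 3 (-1.16 to -1.12, adjusted p 0.0537 to 0.0608). In all, 4 receptors were higher and 2 lower than in strips in P plate, 3 and 2 in M plate, and 3 and 1 in M scaffold. That is 6, 5 and 4 of 9 called, beside 63.1%, 54.9% and 52.1% of all genes. Between M scaffold and M plate edgeR called 0 of 9, with 3 at an unadjusted p under 0.05, and DESeq2 and limma-voom called 2 each; without M scaffold replicate 1 edgeR called 1.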

How the data were processed

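RNA-seq was measured in 12 libraries, 3 in each of 4 groups, taken from the sample titles. The values are raw counts per gene as deposited by the authors: whole numbers with unequal library totals. Per the submitters' processing notes, STAR 2.6.0 and the builds GRCm38 and mm10 were used; per the labels' protocols, library preparation followed Illumina's TruSeq RNA v2 kit, which does not mark strand. Not given in the sources used here are counting program, annotation and how the technical replicates of the design text became 1 column per sample. The table had 0 columns of other samples, and its 5 summary entries entered neither library sizes nor tests; reads in no annotated feature came to 4.20% to 7.87% of the total.

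Genes were matched to GENCODE M21 (52403 of 52550), which gave GRCm38 coordinates and exon lengths. Genes were filtered with filterByExpr (minimum count 10) and scaled by TMM, and a quasi-likelihood model was fitted to all 12 libraries in edgeR 4.0.16 (R 4.3.3), with group as the only term and 8 residual degrees of freedom. Tests were two-sided, with p adjusted by Benjamini-Hochberg over 17700 genes per comparison and called under 0.05. The SE comes from the F statistic. Levels are mean ± SD of 3 libraries. The fit was tested on simulated data. The floor for a count of 0 is 3 counts, and this floor and all intervals speak of counting error alone, as no molecular identifiers are stated and PCR reads are then not separate molecules. No 2 libraries of a group agreed within sampling noise.

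Members and lists were chosen with earlier results of these data known. Every library's value is given for chains with a group mean of at least 20 CPM, and other chains by means. Of the production and receptor lists, the named genes are up to 4 called per comparison with the smallest p in the commoner direction and the largest fold in the opposite one. P4ha1 and Bmp1 are also named where they were not among these. For M scaffold and M plate, deviations of same-numbered libraries from their group means correlated at 0.290, 0.196 and 0.304, so the block is given there. Between other numbers the values were -0.228 to -0.0597. Deviations from a group mean cancel out within the group, so these negative values follow from the positive ones and are no separate evidence of pairing. Alternatives were DESeq2 1.42.0, limma-voom (limma 3.58.1), DESeq2 size factors, plain library totals, all genes with at least 1 count, only the 6 libraries compared, the replicate block and leaving out each library. Levels by transcript length were added after seeing the data. Promoter windows are from RefSeq (GRCm38.p6) and matched 35 of the 44 genes.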

Additional observations from a re-analysis of the deposited data

How the results depend on the processing

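No log2 fold change of a collagen gene changed sign where it was called with either setting. Over all alternatives run, 2803 values kept sign and side of the threshold, 59 uncalled values changed sign and stayed uncalled, 95 lost a call and 109 gained one. Calls that held without each single library were 16 of 21 in M plate against P plate, 0 of 2 in M scaffold against M plate, 31 of 34 in P plate against strips, 22 of 28 in M plate against strips and 21 of 25 in M scaffold against strips. The scaffold comparison depended most on the method, with 2 collagen genes called by the edgeR fit of all libraries, 7 by DESeq2, 5 by limma-voom, 6 within the 6 libraries compared, 13 with the replicate block within those 6, and 0 to 3 when leaving out 1 replicate. The replicate block within the 6 libraries also left 13 of 21 collagen calls in M plate against P plate. Those lost were Col3a1, Col4a1, Col4a2, Col4a3, Col4a6, Col6a3, Col12a1 and Col22a1. There, in P plate against strips, M plate against strips and M scaffold against strips no pairing of libraries is stated, and none can be excluded. Same-number correlations were -0.0808 to 0.0857. In M plate against P plate they were -0.0365, 0.0793 and 0.0857, with at most 0.0483 between other numbers, and 4 of 6 libraries correlated best with their own number. With the replicate block over all 12 libraries, collagen calls numbered 21, 36, 27 and 28 in those comparisons. The production list had 10 calls in M plate against P plate and 6 with every gene of at least 1 count, 6 within the 6 libraries, 2 with the replicate block within them and 3 to 11 when leaving out 1 replicate. In M scaffold against M plate it had 1 call and 5 with DESeq2, 3 with limma-voom, 2 with every gene, 3 within the 6 libraries, 3 with the replicate block within them and 0 to 1 when leaving out 1 replicate. The receptor list had 2 calls in M plate against P plate and 1 with plain library totals, 1 with every gene, 1 with the replicate block within the 6 libraries and 1 to 4 when leaving out 1 replicate. In M scaffold against M plate it had 0 calls, and 1 with DESeq2 size factors, 1 with plain totals, 2 with DESeq2, 2 with limma-voom, 2 with every gene, 1 within the 6 libraries, 1 with the replicate block over all 12, 3 with it within the 6 and 0 to 1 when leaving out 1 replicate. The causes were not tested, and these counts are given without the share of all genes called under each setting. Depth limits statements on Col6a5, Col6a6, Col9a1 and Col25a1 in P plate, where the floor over the group was 0.0299 CPM. It also limits those on Col10a1, at 3 to 6 counts in each M scaffold and M plate library, and on Col2a1, at 3 to 20 counts in each culture library. Levels per kb depend on the length taken for each gene.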
